A study of Mus musculus with 4 samples.

Results

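MicroRNAs (miRNAs) of resting CD4+ T cells were compared between mice lacking Cbl-b and wild-type (WT) mice. The comparison rests on 2 of the 4 libraries of the study, the WT and the Cbl-b-/- library of unstimulated cells, and covers every one of the 1091 mature miRNAs listed in the deposited count table. The mice were C57BL/6 in both groups and carried no other stated allele. Source names call the unstimulated cells naive, and per the labels' protocols CD4+ T cells were kept in RPMI-1640 medium. The sources used here do not give the age of the mice, how long the unstimulated cells were cultured, or whether a library held cells of 1 mouse or of several. Small RNA libraries were made from 3 µg of total RNA per sample. The 2 other libraries, of WT and Cbl-b-/- cells given anti-CD3 for 48 h, are shown beside the unstimulated values. Each group had 1 library, so the spread between replicates is unknown and no p-value is given. The messenger RNA of Cblb was not measured and could not serve as a check of the genotype labels.

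Cbl-b is an E3 ubiquitin ligase that restrains signalling downstream of the T cell receptor (TCR), and T cells lacking it respond with less need for costimulation. A miRNA is cut from a hairpin in a longer transcript, and either arm of the hairpin, 5p or 3p, can be loaded into an Argonaute protein. Pairing of its seed, bases 2 to 8 from the 5′ end, with a messenger RNA leads to repression of that messenger RNA. In T cells miRNAs set the threshold of TCR signalling, hold the naive state and shape differentiation, and several are switched on or off after activation.

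The unstimulated libraries held 15436447 (WT) and 14017277 (Cbl-b-/-) reads counted for known miRNAs, and the stimulated ones 13074598 and 11561693. Levels are counts per 1000000 miRNA reads counted in a library (CPM), and ratios are log2 of Cbl-b-/- over WT. The interval given with a ratio is a 95% exact Clopper-Pearson interval of the split of the reads between the libraries, turned into a ratio. It covers counting error only, not the spread between animals, cultures or preparations. PCR copies of a molecule are counted as separate reads, so the interval can be too narrow even for the sampling of molecules. A miRNA with 0 reads was set at a floor of 3 reads, 0.194 CPM in the WT and 0.214 CPM in the Cbl-b-/- library, and no ratio is given where both libraries held 3 reads or fewer. Called different were miRNAs with a mean level of 50 CPM or more in the 2 libraries, a difference of 2-fold or more, and an interval that excluded a log2 ratio of 0.

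The sequences on which the comparison turns come from the miRNAs with the highest and lowest ratios, given 5′ to 3′ from RefSeq (GRCm38.p6) with the seed in capitals. The first set holds 3 miRNAs with the seed ACCCGUA, whose genes lie in 3 sister clusters. miR-99a-5p lies at chr16:77598940-77598961 (+), miR-99b-5p at chr17:17830194-17830215 (+) and miR-100-5p at chr9:41531437-41531458 (+).
miR-99a-5p: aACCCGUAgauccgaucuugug
miR-99b-5p: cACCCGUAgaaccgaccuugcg
miR-100-5p: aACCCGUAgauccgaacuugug
Counted from base 1 at the 5′ end, miR-99b-5p differs from miR-99a-5p by A1C, U11A, U16C and U21C, and miR-100-5p by U16A alone.

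The second set holds the miRNAs with the seed CCCUGAG from the same clusters, and the 3p arms made only on chromosome 16. miR-125b-5p is encoded at chr16:77646279-77646300 (+) and, by an identical copy, at chr9:41581940-41581961 (+), and miR-125a-5p at chr17:17830817-17830840 (+). miR-125b-5p and miR-125a-5p are 22 and 24 bases long and share their first 13 bases. miR-125b-2-3p lies at chr16:77646318-77646339 (+) and miR-99a-3p at chr16:77598977-77598997 (+).
miR-125b-5p: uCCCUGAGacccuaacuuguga
miR-125a-5p: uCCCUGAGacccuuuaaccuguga
miR-125b-2-3p: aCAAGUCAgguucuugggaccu
miR-99a-3p: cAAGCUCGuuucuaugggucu

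The third set comes from the imprinted Dlk1-Dio3 region of chromosome 12, and is shown because its members share a location and not a seed. All lie on the plus strand, from miR-127-3p at chr12:109592888-109592909 to miR-410-3p at chr12:109743764-109743784.
miR-127-3p: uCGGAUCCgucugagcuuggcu
miR-434-3p: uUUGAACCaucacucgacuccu
miR-136-5p: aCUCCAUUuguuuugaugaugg
miR-136-3p: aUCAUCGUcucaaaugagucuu
miR-411-5p: uAGUAGACcguauagcguacg
miR-300-3p: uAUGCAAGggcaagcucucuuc
miR-381-3p: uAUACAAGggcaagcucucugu
miR-541-5p: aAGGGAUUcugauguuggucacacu
miR-410-3p: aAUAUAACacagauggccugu
The neighbours miR-300-3p and miR-381-3p differ by G4A, U21G and C22U, the first of these within the seed.

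The fourth set holds miRNAs that were lower in the Cbl-b-/- library. miR-19b-3p is encoded at chr14:115044358-115044380 (+) and at chrX:52741991-52742013 (-), and miR-19a-3p at chr14:115044048-115044070 (+). miR-200b-3p lies at chr4:156055685-156055706 (-) and miR-10b-5p at chr2:74726074-74726096 (+).
miR-19b-3p: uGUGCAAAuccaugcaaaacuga
miR-19a-3p: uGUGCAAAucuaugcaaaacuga
miR-200b-3p: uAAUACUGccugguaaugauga
miR-10b-5p: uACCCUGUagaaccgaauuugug
The pair with the seed GUGCAAA differs by C11U.

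The miRNA profiles of the unstimulated libraries were close over nearly all of their range, and the large differences lay in a few loci. Of the 197 miRNAs that averaged 50 CPM or more, 3 (1.52%) were called higher in the Cbl-b-/- library and 0 (0%) lower. They were miR-127-3p of the Dlk1-Dio3 region and the neighbours miR-99a-5p and miR-125b-5p. In WT, miR-99a-5p and miR-125b-5p stood at 9.91 and 8.03 CPM, so both reached the minimum only through the Cbl-b-/- library. At a minimum of 10 CPM, 11 of 307 miRNAs (3.58%) were at least 2-fold higher with an interval excluding 0, and 0 were lower. All 11 came from the Mir99ahg cluster of chromosome 16 or the Dlk1-Dio3 region of chromosome 12. Those of the Mir99ahg cluster, and 5 of the 8 from the Dlk1-Dio3 region, were under 10 CPM in WT.

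At a minimum of 1 CPM, 31 of 501 miRNAs (6.19%) were higher and 2 (0.399%) lower. Of the 31, 18 came from the Dlk1-Dio3 region, 4 from the Mir99ahg cluster and 9 from elsewhere. The highest of these 9 were miR-6516-3p, with 8 reads in WT and 48 reads in Cbl-b-/- (log2 2.72, 1.63 to 4.02), and miR-3969, with 8 and 45 reads (2.63, 1.53 to 3.93). The 2 lower miRNAs were miR-455-3p, with 156 and 64 reads (-1.15, -1.59 to -0.72), and miR-3084-5p, with 25 and 10 (-1.18, -2.41 to -0.07). These 4 were named after their values were seen, and all had a mean below 10 CPM.

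The spread of the ratios narrowed with level. Among 194 miRNAs of 1 to 10 CPM, the robust SD of the log2 ratio was 0.43, and among 81 of 50 to 200 CPM it was 0.22. Among the 36 of 1000 to 10000 CPM the log2 ratios ran from -0.58 to 0.53 with a robust SD of 0.19. The 19 miRNAs above 10000 CPM had a robust SD of 0.07 and ran from -0.27 to 0.29. Counting error alone was narrower than this spread: 149 of the 197 intervals excluded 0, 72 above and 77 below, while 188 of the 197 (95.4%) lay within 1.5-fold. With 1 library a side, the part of this spread that comes from animals, cultures or library preparation was not measured.

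**Figure D1:**
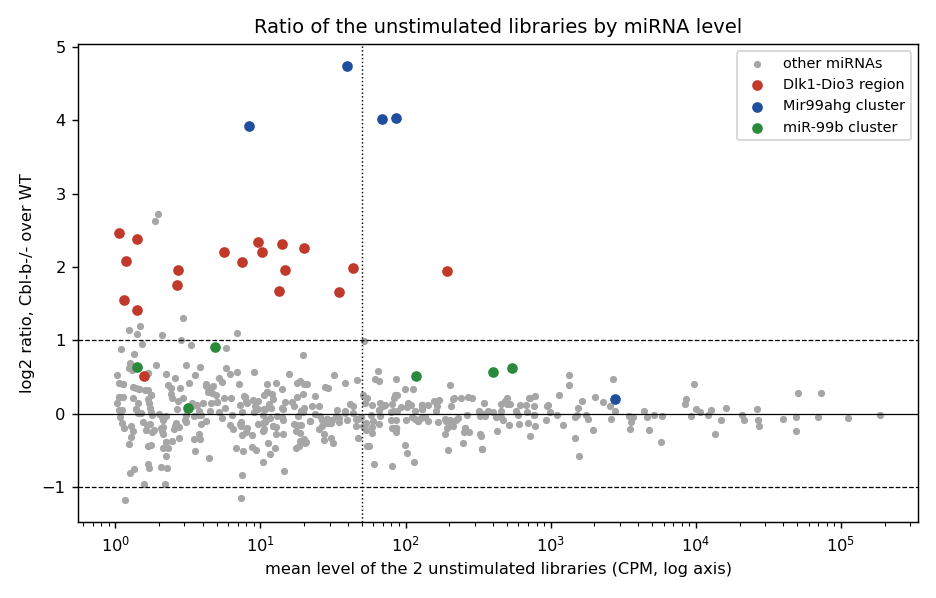
Each point is 1 of the 501 miRNAs averaging 1 CPM or more in the unstimulated libraries, with the mean level (CPM, log axis) on the x axis and the log2 ratio of Cbl-b-/- over WT on the y axis. Dashed lines mark 2-fold and the dotted line 50 CPM. Points of the Mir99ahg cluster reach log2 4.74 and those of the Dlk1-Dio3 region cluster near 2, while most other points lie close to 0.

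Detection itself differed little. Of the 1091 miRNAs, 831 had reads in both libraries, 68 in the WT library alone, 88 in the Cbl-b-/- library alone, and 104 in neither. The highest count among the miRNAs seen in 1 library alone was 7 in WT (miR-196a-5p) and 15 in Cbl-b-/- (miR-154-5p, of the Dlk1-Dio3 region). No miRNA thus had 20 or more reads in 1 library and 0 in the other.

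The Mir99ahg cluster gave the highest ratios above 10 CPM. Its hairpins Mir99a and Mir125b-2 lie in introns of the noncoding gene Mir99ahg on chromosome 16. The Mir99a hairpin, at chr16:77598936-77599000 (+), is shown with both arms in capitals because both were measured.
Mir99a: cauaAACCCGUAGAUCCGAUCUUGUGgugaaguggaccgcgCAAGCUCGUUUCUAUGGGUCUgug
miR-99a-5p, which with its seed relatives is known to repress Mtor, had 153 reads in WT and 2265 in Cbl-b-/-, or 9.91 and 162 CPM (log2 4.03, 3.79 to 4.27). The other arm, miR-99a-3p, had 16 and 219 reads, 1.04 and 15.6 CPM (3.91, 3.18 to 4.75). The arms of this hairpin had ratios whose intervals overlapped.

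miR-125b-5p, associated in human naive CD4+ T cells with holding the naive state, had 124 and 1814 reads, 8.03 and 129 CPM (log2 4.01, 3.75 to 4.28). Because its chromosome 16 and chromosome 9 copies are identical, the 5p reads do not show which copy they came from. The 3p arms were counted per copy, and their reads show the hairpin that made them, not the source of the 5p reads. miR-125b-2-3p, of chromosome 16, had 44 and 1069 reads, 2.85 and 76.3 CPM (4.74, 4.31 to 5.21). Its interval lay above that of miR-125b-5p. miR-125b-1-3p, of chromosome 9, had 1 and 6 reads. miR-100-5p, the chromosome 9 neighbour that differs from miR-99a-5p at 1 base, had 16 and 28 reads (0.95, 0.01 to 1.93).

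The third miRNA of the Mir99ahg cluster is let-7c. Its 5p arm, also encoded on chromosome 15, was abundant, with 39584 and 41425 reads (log2 0.20, 0.18 to 0.22). Its arm specific to chromosome 16, let-7c-1-3p, had 1 read in WT and 9 in Cbl-b-/- (3.31, 0.46 to 8.76). Of the 6 members of the list, 5 were thus at least 2-fold higher in Cbl-b-/- with an interval excluding 0, beside 49 of all 987 miRNAs with reads (4.96%), and the exception was let-7c-5p. A mean level over both libraries lets a member pass through the Cbl-b-/- library alone: in WT, let-7c-5p was the 1 member above 10 CPM.

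The same 4 miRNAs were at a higher level in Cbl-b-/- after 48 h of anti-CD3. miR-99a-5p stood at 1.91 CPM in the WT and 50.6 in the Cbl-b-/- stimulated library, and miR-125b-5p at 3.37 and 57.4. miR-125b-2-3p stood at 0.535 and 17.1 CPM, and miR-99a-3p at 0.153 and 4.15. Both Cbl-b-/- libraries were above both WT libraries for each of the 4, and the stimulated libraries share no library with the unstimulated pair.

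**Figure D2:**
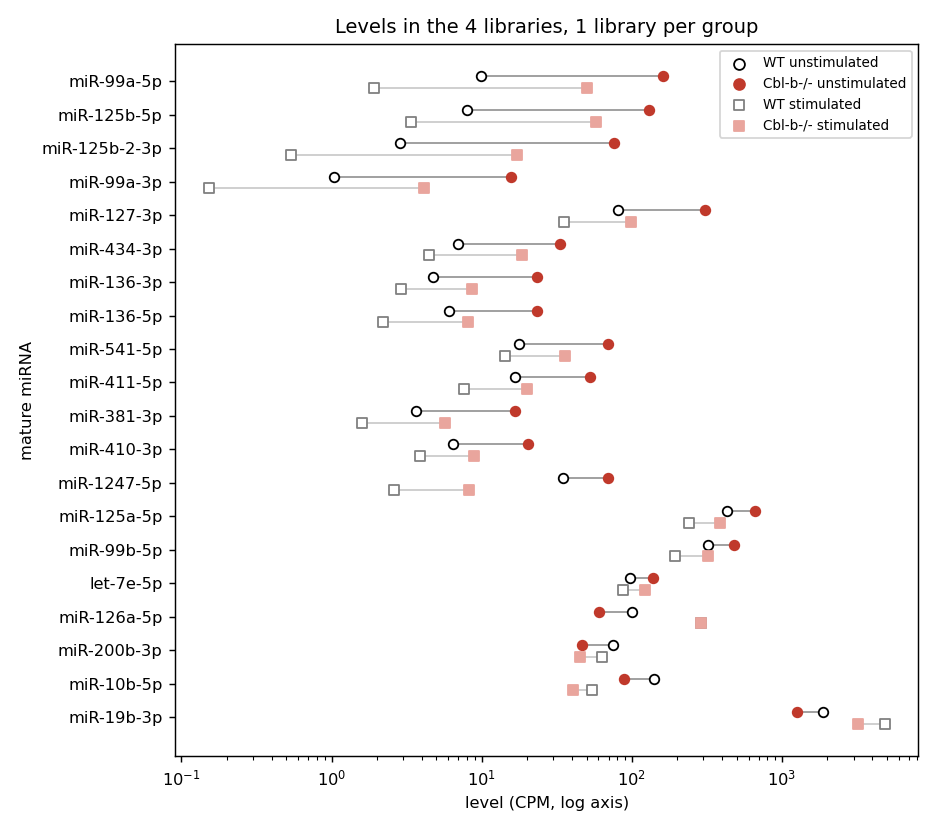
Levels (CPM, log axis) of 20 miRNAs in the 4 libraries, 1 library per group, with circles for unstimulated and squares for stimulated cells, filled for Cbl-b-/-. A line joins WT and Cbl-b-/- of the same state. For the 4 miRNAs of the Mir99ahg cluster and the first 8 of the Dlk1-Dio3 region the filled marker lies to the right in both states, and for miR-200b-3p, miR-10b-5p and miR-19b-3p to the left.

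The sister cluster on chromosome 17, with miR-99b, let-7e and miR-125a in the gene Spaca6, was also higher in Cbl-b-/-, by less than 2-fold. miR-125a-5p, which in mice helps to keep regulatory T cells stable, had 6620 reads in WT and 9260 in Cbl-b-/-, 429 and 661 CPM (log2 0.62, 0.58 to 0.67). miR-99b-5p had 5000 and 6730 reads, 324 and 480 CPM (0.57, 0.51 to 0.62). let-7e-5p, of the let-7 family that restrains growth genes, had 1494 and 1937 reads, 96.8 and 138 CPM (0.51, 0.42 to 0.61). All 6 arms of this cluster were above a ratio of 1, or 5 of 6 with DESeq2 size factors, the weakest being miR-125a-3p with 48 and 46 reads (0.08, -0.54 to 0.69). Summed, the cluster stood at 857 CPM in the WT and 1290 in the Cbl-b-/- library (0.59). In stimulated cells the log2 ratios of miR-125a-5p, miR-99b-5p and let-7e-5p were 0.69, 0.73 and 0.49.

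Reads of the sister miRNAs could have been divided among them, because miR-99a-5p and miR-99b-5p differ at 4 bases and miR-99a-5p and miR-100-5p at 1. Counts summed over the shared seed ACCCGUA went from 335 CPM in WT to 644 in Cbl-b-/- (log2 0.94), below the 2-fold limit. The 3p arms given above differ in sequence between the clusters.

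The Dlk1-Dio3 region showed the other coordinated difference. This imprinted region of chromosome 12 expresses noncoding RNAs, among them Meg3, Rian and Mirg, from the maternal chromosome, and carries one of the largest miRNA groups of the mouse genome. The measured hairpins span chr12:109571990-109743795, or 171.8 kb, and make 65 of the listed miRNAs, chosen by position. The mature sequence gave the position of all but miR-376c-3p and miR-487b-3p, which were placed by their hairpins Mir376c and Mir487b. Of the 65, 3 had no read in either unstimulated library and 10 had reads but no more than 3 in either. Of the other 52, 51 had a ratio above 1 and 1 (miR-494-3p, with 4 reads in WT and 3 in Cbl-b-/-) below. Over all miRNAs, 393 ratios were above 1 and 337 below. A member with 3 reads or fewer in WT had a ratio only where the Cbl-b-/- library held more than 3. The ratio of such a member was above 1 by this rule, and 6 of the 52 had 0 reads in WT. The interval excluded 0 for 31 of the 52, all higher, and 30 of these were at least 2-fold higher. Thus 30 of the 62 with reads (48.4%) were called at no level minimum, beside 49 of all 987 miRNAs with reads (4.96%). Of these 49, 5 came from the Mir99ahg cluster and 14 from elsewhere, and 6 of the 987 (0.608%) were lower, none of them in the region.

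Summed over all 65 members, which needs no minimum, the region held 2504 reads in WT and 8799 in Cbl-b-/-. Their levels were 162 and 628 CPM (log2 1.95, 1.89 to 2.02). Without miR-127-3p, the most abundant member, the sums were 81.9 and 319 CPM (1.96), so the difference did not rest on 1 miRNA. All other miRNAs together had 117 intervals above 0 and 109 below.

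The first stretch of the region includes miRNAs transcribed antisense to Rtl1, a retrotransposon-derived gene that they repress. Its best measured hairpin, Mir127 at chr12:109592846-109592915 (+), is shown with its arms in capitals.
Mir127: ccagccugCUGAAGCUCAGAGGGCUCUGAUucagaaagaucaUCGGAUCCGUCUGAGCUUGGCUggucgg
miR-127-3p had 1240 reads in WT and 4329 in Cbl-b-/-, 80.3 and 309 CPM (log2 1.94, 1.85 to 2.04), and its other arm, miR-127-5p, 7 and 33 reads (2.38, 1.18 to 3.80). miR-434-3p had 107 and 463 reads (2.25, 1.95 to 2.57) and miR-434-5p 44 and 168 (2.07, 1.59 to 2.59). miR-136-3p had 73 and 328 reads (2.31, 1.94 to 2.69) and miR-136-5p 93 and 329 (1.96, 1.63 to 2.31). Both arms of each of these 3 hairpins were thus higher by similar ratios. The list for this stretch, drawn up by name and not by position, held 17 of the 65 members. Their sum went from 105 CPM in WT to 415 in Cbl-b-/- (1.98).

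The second stretch, from miR-379 to miR-410, is known for miRNAs abundant in brain and placenta. Its list, also drawn up by name, held 36 members. They summed to 55.1 CPM in the WT and 205 in the Cbl-b-/- library (log2 1.89). Some members chosen by position, among them miR-341-3p and miR-666-5p, are on neither list. miR-541-5p, in an intron of Mirg, had 273 and 980 reads, 17.7 and 69.9 CPM (1.98, 1.79 to 2.18). miR-411-5p had 258 and 739 reads, 16.7 and 52.7 CPM (1.66, 1.45 to 1.87), and miR-410-3p, in an exon of Mirg, 99 and 287 reads, 6.41 and 20.5 CPM (1.67, 1.34 to 2.02). The log2 ratios of the summed lists differed by less than 0.10.

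Among the less abundant members, the near copies miR-381-3p (56 and 235 reads, log2 2.21) and miR-300-3p (49 and 226 reads, 2.34) had similar ratios. miR-409-3p had 31 and 129 reads (2.20, 1.62 to 2.81). miR-154-5p had 0 reads in WT and 15 in Cbl-b-/-, a log2 ratio of 2.46 against the floor with a counting interval from 1.98 upward. Members that stood apart were miR-369-3p, with 20 and 26 reads (0.52, -0.38 to 1.44), and miR-376b-3p, with 11 and 13 (0.38, -0.89 to 1.68), whose intervals held 0. miR-411-3p had the highest ratio among members with at least 20 reads, at 2 and 20 reads (3.46, 1.42 to 6.60).

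The members did not share a seed. The 60 miRNAs of the region with reads and a sequence at hand had 59 different seeds, and the shared one, AUGUAAC, was that of miR-379-3p and miR-411-3p. In stimulated cells 18 of the 19 members averaging 1 CPM or more in unstimulated cells were again above a ratio of 1. The sums of the region were then 87.4 CPM in the WT and 236 in the Cbl-b-/- library (log2 1.43).

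**Figure D3:**
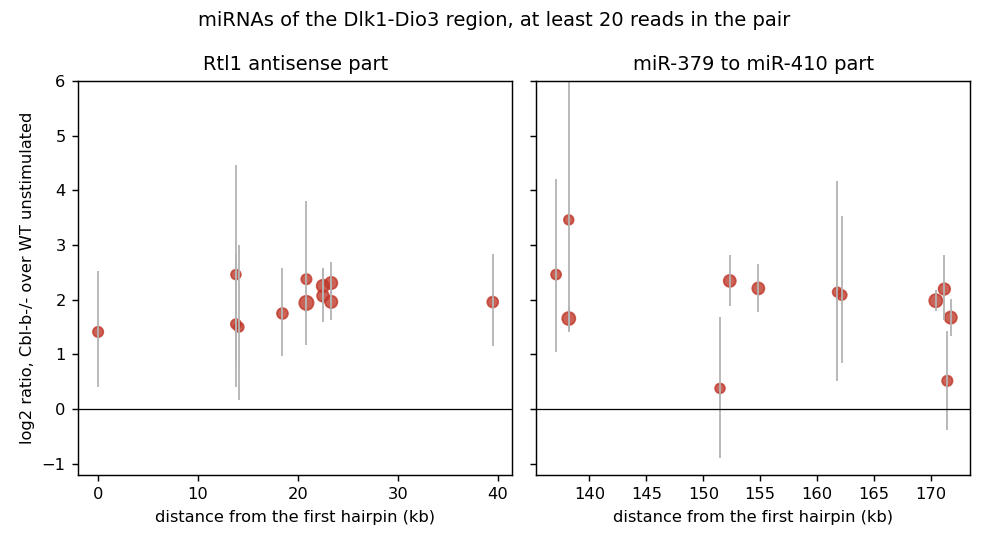
Log2 ratios of Cbl-b-/- over WT unstimulated for the 24 miRNAs of the Dlk1-Dio3 region with at least 20 reads in the pair. The x axis is the distance of their hairpin from the first hairpin (kb). On the left are the antisense Rtl1 part and miR-341-3p, which lies past Rtl1. The miR-379 to miR-410 part is on the right. Lines are 95% counting intervals, 1 of which runs past the end of the axis at 6, and larger points had more reads. All 24 lie above 0, the lowest at 0.38 and the highest at 3.46, with a median of 2.03.

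miR-1247 lies farther along the same imprinted domain, in an exon of Dio3os at chr12:110278048-110278129 (-), 534 kb past the last hairpin of the region and on the other strand. miR-1247-5p had 539 reads in WT and 969 in Cbl-b-/-, 34.9 and 69.1 CPM (log2 0.99, 0.83 to 1.14), just short of the 2-fold limit. miR-1247-3p had 63 and 106 reads (0.89). After stimulation miR-1247-5p stood at 2.60 and 8.22 CPM (1.66). Its ratio in unstimulated cells lay below those of the well counted members of the main region.

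**Figure D4:**
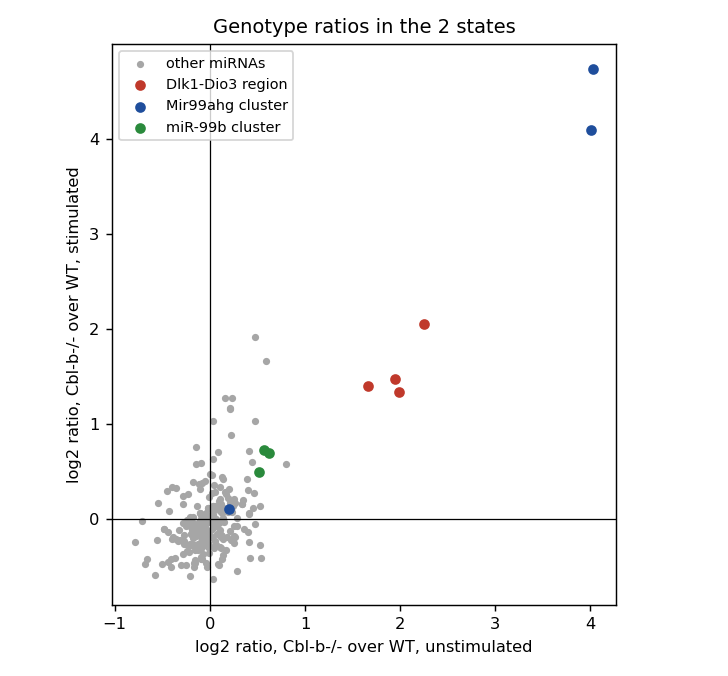
Log2 ratios of Cbl-b-/- over WT in the stimulated pair (y axis) against the unstimulated pair (x axis) for the 286 miRNAs averaging 10 CPM or more in both states, 1 point per miRNA. Of these points 194 have the same sign in both pairs, and the points of the Mir99ahg cluster other than let-7c-5p and of the Dlk1-Dio3 region lie farthest to the right.

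Over those 286 miRNAs, which share library, depth and cell source within each pair but no library between the pairs, Pearson's r was 0.781 and Spearman's rho 0.410. At a minimum of 50 CPM in both states, r was 0.525 and rho 0.435 over 184 miRNAs, of which 128 had the same sign. Pearson's r is sensitive to points with large ratios in both pairs. It was not computed without the Mir99ahg cluster and the Dlk1-Dio3 region. By the rule of size, 12 of 230 miRNAs in the stimulated pair were higher (5.22%) and 0 lower.

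miRNAs listed as induced by TCR signalling were mostly slightly higher in the unstimulated Cbl-b-/- library, and none by 2-fold. Of the 15 listed, 13 reached a mean of 10 CPM, 12 with a ratio above 1 (11 with TMM or DESeq2 factors) and 1 below, and the median log2 ratio was 0.22, beside -0.02 over all 307 miRNAs of that level. miR-155-5p, needed for full effector responses and encoded in an exon of Mir155hg, had 34677 reads in WT and 43628 in Cbl-b-/-, 2246 and 3112 CPM (0.47, 0.45 to 0.49). Its other arm, miR-155-3p, was at 15.7 and 17.5 CPM (0.16, -0.11 to 0.42). The intervals of miR-132-3p (0.09, -0.01 to 0.20) and miR-222-3p (0.03, -0.08 to 0.15) also held 0. Of the 15 listed, only miR-221-3p was lower in the stimulated than in the unstimulated WT library (193 and 224 CPM). miR-21a-3p was at 1091 and 1571 CPM (0.53, 0.50 to 0.56) and miR-21a-5p, among the most abundant miRNAs, at 65605 and 79972 CPM (0.29).

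miR-31-5p, known in T cells for its induction on activation, had 800 and 1090 reads, 51.8 and 77.8 CPM (log2 0.59, 0.45 to 0.72). miR-210-3p, also induced in hypoxia, was at 17.2 and 22.8 CPM (0.41), and miR-212-3p at 25.8 and 32.8 (0.35). The exception was miR-96-5p, with 216 and 161 reads (-0.28, -0.59 to 0.02). The list summed to 71833 CPM in the WT and 87893 in the Cbl-b-/- library (0.29), a sum that miR-21a-5p dominates. In the stimulated libraries the levels were 25337 (WT) and 51621 CPM (Cbl-b-/-) for miR-155-5p, and 641 and 2032 CPM for miR-31-5p, with log2 ratios of 1.03 and 1.67. Those of miR-21a-3p, miR-21a-5p and miR-212-3p were 0.14, 0.01 and 0.20 there. Whether the ratios differ between the states beyond the spread of libraries was not tested.

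miRNAs listed for resting T cells leaned the other way. Of 10 listed, all above 50 CPM, 8 had a ratio below 1, and the median log2 ratio was -0.20. miR-342-3p, from an intron of Evl, had 101008 reads in WT and 70293 in Cbl-b-/-, 6543 and 5015 CPM (-0.38, -0.40 to -0.37). miR-150-5p, a repressor of Myb in mature lymphocytes, was at 53330 and 45148 CPM (-0.24). miR-151-3p and miR-151-5p were at -0.33 and -0.31, and miR-139-5p at -0.25. The members above 1 were miR-28a-3p (0.21) and miR-342-5p (0.10, -0.03 to 0.23). None of the 10 reached 1.5-fold. Not all of them were lower after stimulation. In WT, miR-342-3p was at 6543 CPM unstimulated and 7229 stimulated, and miR-342-5p at 67.2 and 273. miR-151-3p (1633 and 1799 CPM) and miR-28a-3p (198 and 237 CPM) were also higher in the stimulated WT library. The other members of the list were lower there.

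Among miRNAs of NF-kB feedback and of regulatory T cells, 3 of the 5 above 10 CPM had a ratio above 1 and the median was 0.21. miR-146a-5p, which limits NF-kB signalling by repressing Traf6 and Irak1, was at 8342 CPM in the WT and 11042 in the Cbl-b-/- library (log2 0.40, 0.39 to 0.42), and miR-146b-5p at 464 and 535 (0.21). miR-10a-5p, linked to regulatory T cells, was at 5887 and 5772 CPM (-0.03). miR-181a-5p, which raises TCR sensitivity by repressing phosphatases, was at 113595 and 109289 CPM (-0.06). Of the 5 members of the miR-181 list above 10 CPM, 1 had a ratio above 1, miR-181b-5p at 0.23, and miR-181c-5p was lowest at -0.27.

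**Figure D5:**
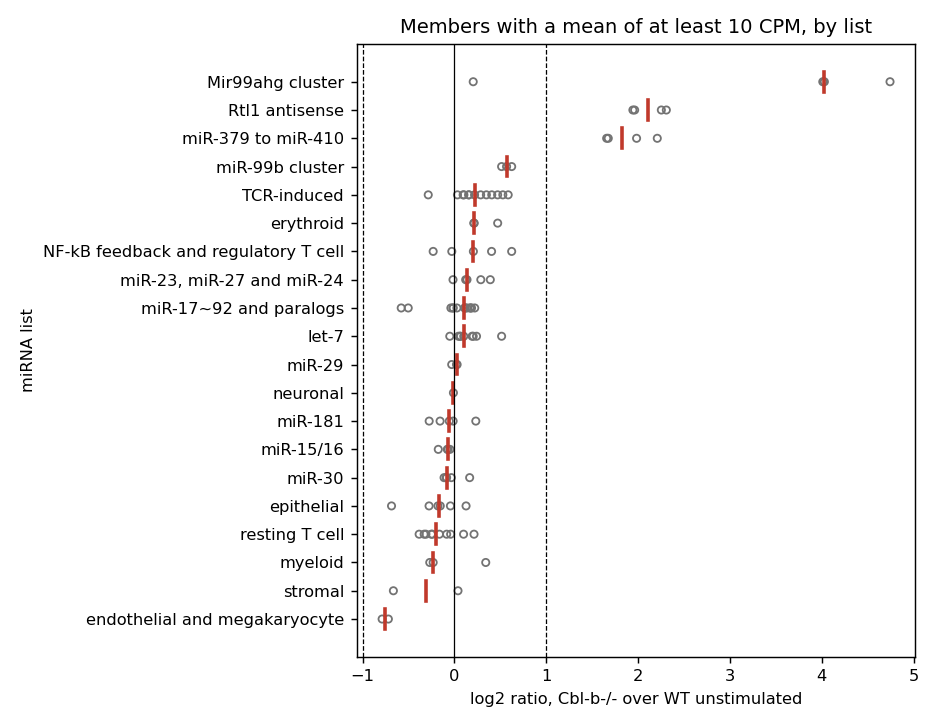
Log2 ratios of Cbl-b-/- over WT unstimulated for list members averaging 10 CPM or more (open circles), 1 list per line, with the median as a red bar and dashed lines at 2-fold. The Mir99ahg, Rtl1 antisense and miR-379 to miR-410 lists have medians of 4.02, 2.11 and 1.83, while all others lie between -0.75 and 0.57.

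Families that most cells express lay near 0. The medians were 0.10 for let-7 (9 members, 8 of them above a ratio of 1, or 5 with DESeq2 size factors), 0.14 for miR-23, miR-27 and miR-24 (5), -0.08 for miR-30 (5) and -0.07 for miR-15/16 (4). The median of the miR-29 family was 0.02 over 3 members, and was -0.03 under TMM and -0.07 under DESeq2 scaling. Within the miR-23, miR-27 and miR-24 group, miR-27a-3p and miR-27b-3p, repressors of T helper differentiation factors in mice, stood out at 0.39 and 0.29, while miR-23a-3p was at 0.14 and miR-24-3p at -0.02.

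miR-19 was the exception within the miR-17 to miR-92 cluster and its paralogs, which support lymphocyte proliferation. miR-19b-3p had 29104 reads in WT and 17692 in Cbl-b-/-, 1885 and 1262 CPM (log2 -0.58, -0.61 to -0.55). miR-19a-3p, its near copy, had 3570 and 2288 reads, 231 and 163 CPM (-0.50, -0.58 to -0.43). The other 11 members lay between -0.04 and 0.22, among them miR-92a-3p, also encoded in the same transcript, at 20973 and 20760 CPM (-0.01), miR-17-5p at 0.03 and miR-20a-5p at -0.01. Summed, the list was at 43656 and 43503 CPM. In stimulated cells miR-19b-3p and miR-19a-3p had log2 ratios of -0.59 and -0.48.

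The lowest ratio above 50 CPM was a 1.65-fold difference, and no lower miRNA was called. miR-126a-5p, of endothelial cells and megakaryocytes, had 1546 reads in WT and 853 in Cbl-b-/-, 100.2 and 60.9 CPM (log2 -0.72, -0.84 to -0.60), and its other arm miR-126a-3p had 285 and 150 reads (-0.79, -1.08 to -0.50). miR-200b-3p, of epithelial cells, had 1161 and 656 reads, 75.2 and 46.8 CPM (-0.68, -0.82 to -0.55). miR-10b-5p, in introns of Hoxd3 and Hoxd4, had 2164 and 1240 reads, 140 and 88.5 CPM (-0.66, -0.77 to -0.56).

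Also among the 12 lowest were miR-339-3p, at 121 and 83.2 CPM (log2 -0.54), and miR-501-3p, at 64.3 and 47.2 CPM (-0.45). The rows miR-669a-3p and miR-669o-3p held identical counts, 6032 and 3920 (-0.48), and cannot be told apart. let-7b-3p (-0.44), miR-872-3p (-0.43) and miR-467d-5p (-0.40) completed the 12 lowest. In the stimulated pair miR-126a-5p was at -0.02, miR-200b-3p at -0.47 and miR-10b-5p at -0.42, and 9 of the 12 had a ratio below 1.

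The labelled cell type was compared with miRNAs of lymphocytes and blood cells, which do not separate CD4+ T cells from other lymphocytes. The lymphocyte and blood cell miRNAs miR-142a-5p (187887 and 185150 CPM), miR-181a-5p and miR-150-5p were among the 10 most abundant of both libraries. miRNAs of other cells were present too. The erythroid list was above a ratio of 1 for all 3 members over 10 CPM, and summed to 1408 CPM in the WT and 1652 in the Cbl-b-/- library. Most of this sum was miR-486a-5p (662 and 769 CPM) and miR-486b-5p (661 and 765 CPM). These come from 1 locus and may hold the same reads, counted for each, so the sum may be inflated. Among the other members of the list, miR-144-5p was at 4.41 and 9.42 CPM (log2 1.10, 0.66 to 1.54) and miR-451a at 71.6 and 99.3 (0.47). The myeloid list summed to 499.7 and 430 CPM, with miR-223-3p at 464 and 396 (-0.23) and miR-511-3p at 12.5 and 15.8 (0.34, 0.06 to 0.63). The endothelial list summed to 119 and 71.6 CPM, the stromal list to 308 and 262, and the epithelial list to 1082 and 1066.

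No member of these 5 lists was at 0 in either library. Of the markers of distant tissues, miR-122-5p of liver had 9 reads in WT and 8 in Cbl-b-/-, and miR-133a-3p of muscle 1 and 1. The neuronal list summed to 354 and 351 CPM, nearly all of it miR-128-3p, which lymphocytes also express, and miR-9-3p had 1 read in WT and 0 in Cbl-b-/-. miR-126a, miR-200b-3p and miR-10b-5p, the lowest ratios above, are themselves members of the endothelial, epithelial and stromal lists. Of the 6 epithelial members above 10 CPM, 5 had a ratio below 1, and the median log2 ratio was -0.17. Besides miR-200b-3p these were miR-429-3p (-0.28), miR-200a-3p (-0.18), miR-200c-3p (-0.15) and miR-141-3p (-0.04), while miR-203-3p was at 0.13. In the stromal list miR-143-3p was at 0.04, or -0.01 with TMM factors. The part of other cells in any of the ratios was not tested. In bulk samples, fewer cells of a type and less of a miRNA per cell cannot be told apart.

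Seen by chromosome, the median ratios above 10 CPM were highest on chromosomes 12 and 17, which carry the Dlk1-Dio3 region and the miR-99b cluster. Among miRNAs with hairpins on 1 chromosome alone, the median log2 ratio was 0.03 over 223. On chromosome 12, 16 of 18 were above a ratio of 1 (15 with TMM or DESeq2 factors), with a median of 0.70. Of these, 8 were at least 2-fold higher, 5 of which reached the mean of 10 CPM only through the Cbl-b-/- library. The 5 miRNAs of chromosome 17 had a median of 0.51, 3 of them from the miR-99b cluster. On chromosome 4, 2 of 15 were above 1 (1 with TMM or DESeq2 factors) and the median was -0.13.

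Chromosome 16 also carries the targeted gene, Cblb. Of its 11 miRNAs above 10 CPM, 9 had a ratio above 1 (8 with TMM and 7 with DESeq2 factors). The median was 0.15, as it was over the 4 miRNAs of chromosome 10. Among miRNAs of at least 1 CPM made on this chromosome alone, the nearest to Cblb were miR-3470b, at -8.19 Mb from the end of the gene (log2 0.15, -0.13 to 0.43), and miR-1947-5p, at -19.1 Mb (-0.20, -0.59 to 0.18), and both intervals held 0. miR-99a and miR-125b-2 lie 25.4 Mb past the end of Cblb, with no such miRNA between. miR-155, 32.5 Mb past it, was at 0.47. The part of linkage to the targeted gene in these ratios was not tested.

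The miRNAs of a cluster of hairpins shared a direction in some clusters and not in others. Grouped where hairpins lie within 10 kb, 28 clusters held at least 2 miRNAs above 10 CPM. The Mir99ahg cluster was not among them, as Mir99a and Mir125b-2 lie farther apart than 10 kb. Some clusters, such as those with miR-130b, miR-29a and miR-29c, held above 10 CPM only the arms of 1 hairpin. miRNAs made by more than 1 hairpin, such as miR-19b-3p and miR-92a-3p, were not placed in a cluster. In 7 of the 28 clusters all members were above a ratio of 1, in 6 all below, and in 15 they were mixed. Signs of log2 ratios near 0 depend on the scaling, here and for the hairpin arms below. The lowest log2 ratios of the Mir296 and Mir221 clusters, both 0.03, are smaller in size than the TMM shift of -0.05. Of 56 hairpins with both arms above 10 CPM, 39 had log2 ratios of the same sign in both, and the 5p to 3p ratio shifted by less than 1.5-fold in 55. The exception was Mir3068, whose 5p arm was at 22.5 and 17.6 CPM and whose 3p arm was at 99.9 and 126, a shift of -0.69. The leading arm differed between the libraries only for Mir1981, whose arms were nearly equal.

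Grouped by seed, the repertoire was nearly the same. Sequences were at hand for 905 of the 1091 miRNAs, holding 89.7% of the WT and 90.8% of the Cbl-b-/- reads. The 5 leading seeds, those of miR-142a-5p, miR-181, miR-16, miR-21a-5p and let-7, took 52.1% of the reads in WT and 52.7% in Cbl-b-/-. Of 114 seeds with at least 50 CPM, 109 lay within 1.5-fold. 1 was at least 2-fold higher, CGGAUCC of miR-127-3p, and 0 were lower. The lowest was GUGCAAA of miR-19, at 2117 CPM in the WT and 1425 in the Cbl-b-/- library (log2 -0.57).

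The ratios varied little with properties of the sequences. Over 158 miRNAs above 50 CPM with a sequence, Spearman's rho of the log2 ratio was 0.08 with GC content and -0.09 with length, across miRNAs of the same 2 libraries. The median log2 ratio was 0.08 for miRNAs starting with A (43), 0.03 for C (30), 0.03 for G (9) and -0.01 for U (76).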

How the data were processed

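Small RNA reads of 4 libraries were processed by the authors. Per the submitters' processing notes, the tools included cutadapt 1.7.1 and the build was GRCm38.p5. Not given in the sources used here are the aligner, the counter and the miRNA release. Per the file headers, the deposited tables hold a raw read count per mature miRNA and library, and a normalized read count, a score that the authors derived from it. The counts were used, and the score served only to recover the authors' library totals as an alternative scaling. The authors' fold changes, p-values and calls were not used. Samples were grouped by their source names.

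Each count was divided by its library's sum and scaled to 1000000. Count models give no p-value with 1 library per group, so a rule of size was used. edgeR 4.0.16 (TMM) and DESeq2 1.42.0 (R 4.3.3) gave alternative scaling factors only. Other steps used Python 3.11.15, pandas 2.3.3, scipy 1.17.1 and matplotlib 3.10.9, and the ratio and interval steps were tested on simulated data. From the values, the counts of 25 miRNAs, in 12 groups, were identical within the group in each of the 4 libraries, so reads with several matches appear to be counted for each. The robust SD is the scaled median absolute deviation.

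Named miRNAs were the 12 highest and 12 lowest ratios above 50 CPM with an interval excluding 0, those at least 2-fold different at 10 to 50 CPM, and the 5 most abundant of each library. The rule added up to 4 members of each list, other arms, leading and extreme seeds, and miRNAs of chromosome 16. Further members of the lists and of the Dlk1-Dio3 region, and any miRNA outside the rule, were chosen after their values were seen. The comparison, members, lists and rules were chosen with earlier results of these data known. Genes hosting hairpins come from GENCODE M21 (GRCm38).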

Additional observations from a re-analysis of the deposited data

Results flagged for a closer look

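The genotype ratio took opposite signs in the unstimulated and stimulated pairs, with both counting intervals excluding 0, for a pair of the miRNAs named for the highest and lowest ratios, the only named miRNAs compared in this way. The log2 ratio of miR-339-3p went from -0.54 without stimulation to 0.17 with it, a difference of 0.71. That of miR-501-3p went from -0.45 to 0.30, a difference of 0.74. Each value compares 1 library with 1 library, and neither difference was tested.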

How the results depend on the processing

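The count of 3 miRNAs higher and 0 lower was the same with totals without the 10 most abundant miRNAs, the authors' implied totals, TMM factors, DESeq2 size factors, identical rows kept once and 0.5 added to each count. A fold limit of 4 left 2 higher. A minimum of 10 CPM gave 11 higher, 200 CPM gave 0, and no minimum gave 49 higher and 6 lower. A fold limit of 1.5 gave 6 higher and 3 lower. Counts summed over a shared seed gave 1 higher. Without the Mir99ahg cluster and the Dlk1-Dio3 region, an alternative chosen after seeing the data, 0 were higher at 50 CPM and 0 at 10 CPM. The scalings moved all log2 ratios by -0.05 (TMM) and -0.09 (DESeq2) and by less than 0.01 for the other totals. Of 113 named miRNAs 9 changed sign under some scaling, none with a log2 ratio above 0.08 in size. Of 20 list medians 2 did under some scaling or level minimum: miR-29 under TMM and DESeq2, and the stromal list, from -0.31 to 0.16 at a minimum of 1 CPM. Of 19 chromosome medians 11 did, those of chromosomes 6 and 15 only at a minimum of 50 CPM, none above 0.07 in size before.

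With 1 library per group there was no replicate to leave out, and the spread between mice or preparations was not measured. Below 10 CPM the counting intervals are wide, and a count of 0 allows up to 0.194 (WT) and 0.214 CPM (Cbl-b-/-).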
